A study of Rattus norvegicus with 2 samples.

Results

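Genes of the matrix metalloproteases (MMPs), the ADAM, ADAMTS and ADAMTSL families and the tissue inhibitors of metalloproteases (TIMPs) were compared between DRGs of the tumor side and of the control side of rats. DRGs contain the somata of sensory neurons (SNs) together with glia, macrophages, vessels and connective tissue. A gene was a member if a probe set carried a single symbol beginning with Mmp, Adam or Timp followed by a number, or with Adamts. This gave 79 probe sets of 55 genes among 20826 probe sets of 14217 genes. Probe sets, each a set of short probes for 1 transcript whose brightness is combined into a signal, were reduced to 1 per gene by keeping the one with the highest log2 signal averaged over both arrays. The members comprised 17 MMP, 18 ADAM, 12 ADAMTS, 4 ADAMTSL and 4 TIMP genes. The tumor side was that of the right tibia, into whose marrow cavity IP-B12 cells had been placed, lung carcinoma cells of the rat that grow osteolytically, and the control side was that of the left tibia, for which no injection is described. The rats were 4-week-old female Sprague-Dawley animals, their DRGs were taken 14 days after inoculation, and their number was not stated. Both sides thus share a tumor-bearing host. RNA of each side was measured on 1 array, so there was no replicate error and no test, and each difference describes these 2 arrays. Of the markers of SNs, which the label DRG calls for, all 9 measured were above the signal rule that follows, with log2 ratios from -0.18 to 0.12. The members were proposed with the high ratio of Mmp13 in view, and that ratio is given as a description.

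MMPs are zinc proteases that are made as inactive proforms and, once activated, cut collagens, proteoglycans and other matrix proteins outside cells. ADAMs are related membrane proteins, some of which cut the outer part of receptors, adhesion molecules and growth factors from the cell surface, while others lack protease activity and serve as receptors. ADAMTS proteases are secreted and cut proteoglycans, procollagens and other matrix proteins, ADAMTSL proteins resemble them without the protease domain, and TIMPs block MMPs and some ADAMs. In DRGs and peripheral nerve these proteins take part in the turnover of the matrix around neurons and in the shedding of neuronal and glial surface proteins.

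Mmp13 was far higher on the tumor side, and none of the other members with enough signal to be compared followed it. Some dim members also had ratios past a fold of 2, in both directions, at signals where ratios scattered widely. Members were called above the signal rule where the brighter of both signals was at or over the median of its array, which was 72.7 on the tumor side and 69.0 on the control side. This held for 30 of the 55 members (54.5%), against 68.2% of all genes. At a fold of 2, 1 of these 30 was higher in tumor-side DRGs, namely Mmp13, and 0 were lower. The background over all 9691 genes above the rule was 0.134% higher and 0.186% lower by the same fold. At a fold of 1.5 the count was again 1 higher and 0 lower, with a background of 1.19% and 0.743%. These counts contain the member for which the group was proposed, and nothing is read from them about the families as a whole. The log2 ratio, taken as tumor side over control side, had a median of 0.12 over the 30 members, and that of all genes above the rule was 0.08. The same median without Mmp13 was 0.12, and the 29 other members ranged from -0.32 to 0.36. The tumor-side array was the brighter one, by 5.98% in trimmed mean signal. Of the 30, 21 had a log2 ratio above 0 and 9 below it, so that 70.0% were higher on the tumor side, against 70.9% of all genes above the rule.

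**Figure D1:**
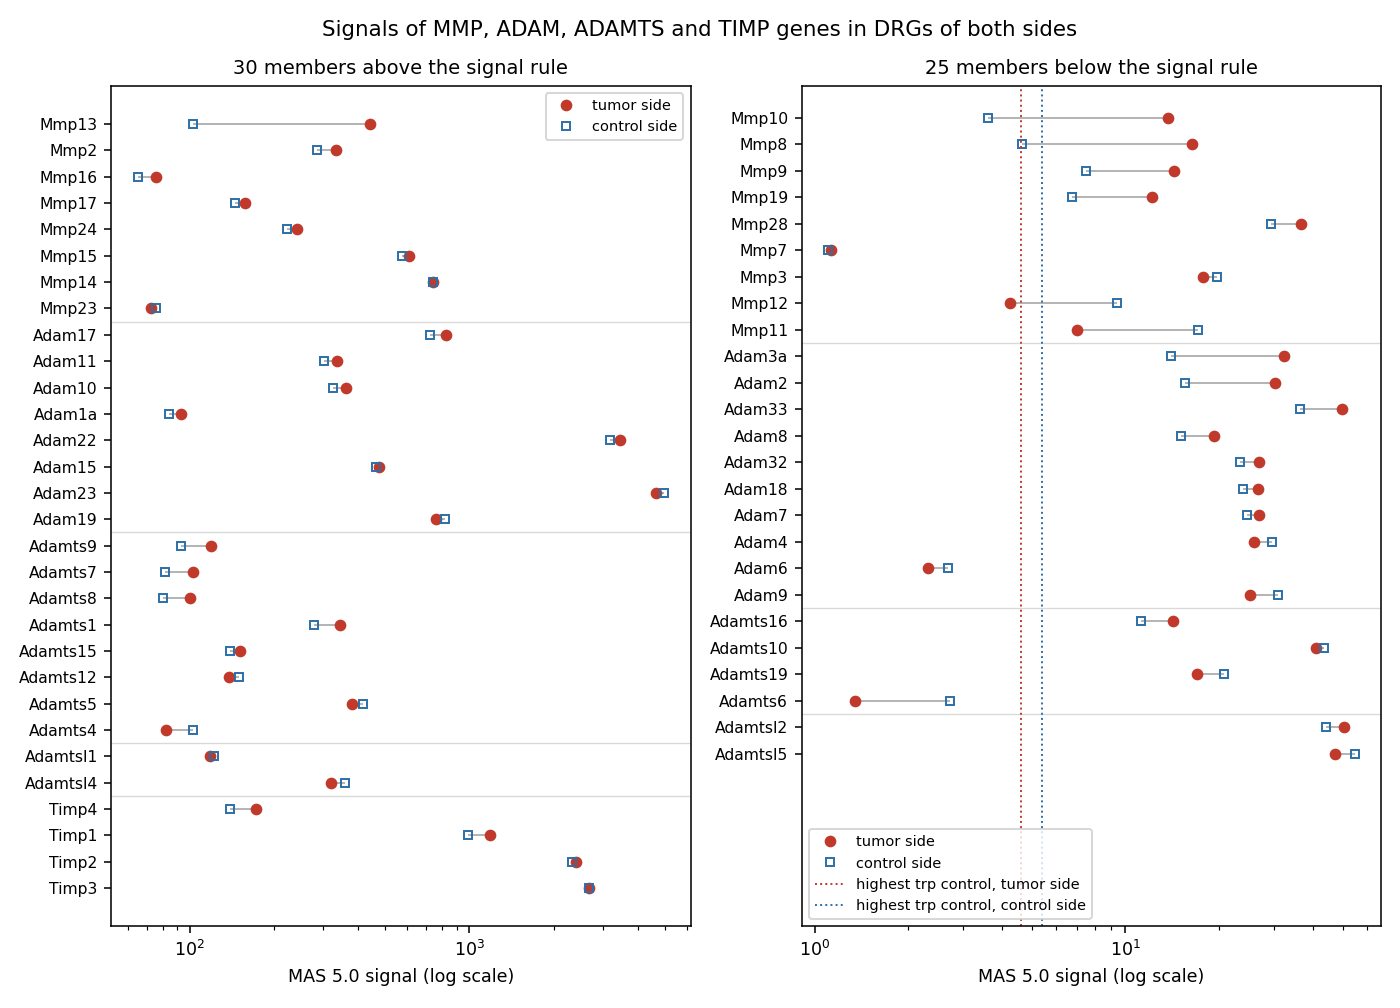
MAS 5.0 signal of each member on a log scale, with filled circles for the tumor side and open squares for the control side. The families are grouped from top to bottom as MMP, ADAM, ADAMTS, ADAMTSL and TIMP, and Mmp13 is the member above the signal rule with a wide gap (440.7 on the tumor side and 102.9 on the control side), while the wide gaps in the right panel lie at low signals, down to those of the trp controls, whose highest signals (4.63 on the tumor side and 5.39 on the control side) are dotted lines.

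Mmp13 encodes collagenase 3, which cuts fibrillar collagens and is known from hypertrophic cartilage, osteoblasts and bone under remodelling. Its only probe set, 1388204_at, had a signal of 440.7 in tumor-side DRGs and 102.9 in control-side DRGs. The tumor-side signal was 4.28 times higher, a log2 ratio of 2.10. Among the members above the signal rule the next, Adamts9, had a log2 ratio of 0.36, which left a gap of 1.74 between them. As a measure of how far ratios scattered at this brightness, the central 95% of the log2 ratios of the 500 probe sets nearest to Mmp13 in mean signal ran from -0.36 to 0.45. Probe sets of the same gene with a mean signal within a fold of 2 of that of Mmp13 had an SD of their log2 ratios of 0.18 over 612 genes. Ranked by log2 ratio, Mmp13 was at place 2 of the 9691 genes above the rule, and Adamts9, the next member, at place 544. Mmp13 was chosen for its large ratio, so its place against these ranges and ranks is a description and not a test. In whole ganglia, more cells that express a gene and more RNA per cell cannot be told apart.

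The promoter of Mmp13 is shown beside those of Mmp3 and Mmp10, which lie in the same gene cluster and share 2 of its short motifs, because Mmp13 was the 1 of these 3 with signals above the rule. The 250 bases before the annotated start are from RefSeq (assembly GRCr8), at chr8:12782579-12782828 for Mmp13, chr8:12925031-12925280 for Mmp3 and chr8:12974457-12974706 for Mmp10, all on the plus strand. Capitals mark TGANTCA (the AP-1 site bound by FOS and JUN proteins), TGTGGT (a core site of RUNX factors) and TATAAA (the TATA box), each searched on both strands.
Mmp13: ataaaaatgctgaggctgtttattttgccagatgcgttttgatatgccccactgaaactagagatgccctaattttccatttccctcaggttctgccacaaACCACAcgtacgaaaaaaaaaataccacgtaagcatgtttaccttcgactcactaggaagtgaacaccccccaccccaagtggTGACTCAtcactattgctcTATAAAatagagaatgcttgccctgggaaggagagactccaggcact
Mmp3: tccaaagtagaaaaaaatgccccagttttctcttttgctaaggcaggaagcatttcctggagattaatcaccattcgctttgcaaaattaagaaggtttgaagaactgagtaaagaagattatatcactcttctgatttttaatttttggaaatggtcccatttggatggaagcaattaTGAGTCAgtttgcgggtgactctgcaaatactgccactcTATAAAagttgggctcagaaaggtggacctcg
Mmp10: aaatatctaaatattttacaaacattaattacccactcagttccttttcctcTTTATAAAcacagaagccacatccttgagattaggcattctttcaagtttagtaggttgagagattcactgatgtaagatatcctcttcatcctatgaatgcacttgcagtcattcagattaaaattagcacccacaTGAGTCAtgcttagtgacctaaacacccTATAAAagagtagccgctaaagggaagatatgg
The AP-1 letters begin 66 bases before the start in Mmp13, 71 in Mmp3 and 61 in Mmp10. The RUNX letters, which stand on the opposite strand as ACCACA, begin 149 bases before the start in Mmp13 and were not found in the windows of Mmp3 and Mmp10. In Mmp10 a pair of TATA matches on opposite strands overlap far upstream. For counting motifs the windows also held the 50 bases after the start, and windows were at hand for 34 of the 55 members. AP-1 letters were in 6 of these 34 (17.6%), Adam19, Mmp3, Mmp7, Mmp10, Mmp12 and Mmp13, against 7.33% of 27457 promoters of the same length. All of these members but Adam19 lie in the gene cluster of Mmp13, so they are not separate cases. RUNX letters were in 1 of the 34 (2.94%), that of Mmp13, against 16.9%, and TATA letters in 10 (29.4%), against 14.3%. Over the 11733 promoters of genes on the array the shares were 5.44% for AP-1, 13.1% for RUNX and 8.45% for TATA. Of the 6 members with AP-1 letters, 2 were above the signal rule, namely Mmp13 with a log2 ratio of 2.10 and Adam19 with -0.11. These matches describe the letters of the windows and do not show that a factor was bound.

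Mmp13 stands at the edge of a cluster of 10 MMP genes on chromosome 8, with no other protein-coding gene between them in RefSeq. Of the 10, 6 were analysed here, and Mmp13 was the 1 above the signal rule. Its nearest measured neighbour on the cluster side, Mmp12, the macrophage elastase, had a signal of 4.24 on the tumor side and 9.40 on the control side. Mmp3, stromelysin 1, had 17.8 on the tumor and 19.7 on the control side. Mmp10, stromelysin 2, had 13.7 on the tumor side and 3.60 on the control side, and Mmp8, the collagenase of neutrophils, had 16.4 on the tumor and 4.64 on the control side. Mmp7, matrilysin, had 1.13 in tumor-side and 1.11 in control-side DRGs, both under the trp controls, which are probe sets for a bacterial transcript and reached 4.63 on the tumor-side and 5.39 on the control-side array. For Mmp8 and Mmp10 the control-side signal, and for Mmp12 the tumor-side signal, was no higher than these controls, so no fold is given. The dim signals of Mmp8 and Mmp10 were higher on the tumor side, like that of Mmp13. The log2 ratios of the 500 probe sets nearest in signal spread widely there, with a central 95% from -2.71 to 2.93 around Mmp8 and from -2.91 to 3.42 around Mmp10, and both genes lay within it. On the other side of Mmp13, the neighbouring gene Dcun1d5, a regulator of cullin neddylation, had 1389 on the tumor and 1022 on the control side with a log2 ratio of 0.44. The next gene, Dync2h1, a motor subunit of cilia, had 150.4 on the tumor and 129.4 on the control side with a log2 ratio of 0.22. Neither neighbour reached a fold of 1.5.

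Of the gelatinases, which cut denatured collagen and basement membrane, Mmp2 had 333.5 in tumor-side and 284.4 in control-side DRGs, a log2 ratio of 0.23. A second, dim probe set of Mmp2 went the other way, with 21.0 on the tumor side and 27.2 on the control side. Mmp9 was dim on both of its probe sets, with 14.3 in tumor-side and 7.48 in control-side DRGs on the brighter one and 10.7 on the tumor and 1.25 on the control side on the other. Both were higher on the tumor side, but the control-side signal of the second did not reach the trp controls, and neither probe set met the signal rule. Mmp8 and Mmp9 are stored in neutrophils. The 5 granulocyte markers above the rule all passed a fold of 1.5 downwards, with a median log2 ratio of -1.05 (range -1.30 to -0.92). Over all 8 measured granulocyte markers the signals summed to 779 on the tumor side and 1590 on the control side, with none at 0. Of the 3 dim ones, Camp had 30.9 on the tumor and 23.6 on the control side. The part of granulocytes in the dim signals of Mmp8 and Mmp9 was not tested.

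All 5 measured membrane-type MMPs, which are anchored in the cell surface and act on matrix next to the cell, were above the rule and stayed close to the median gene. Their log2 ratios ran from 0.00 to 0.22. Mmp14 (MT1-MMP), which activates MMP2 together with TIMP2, had 742.6 on the tumor side and 742.7 on the control side, and a second probe set had 271 on the tumor and 282 on the control side. Tumor and control side were thus nearly alike on both probe sets. Mmp15 had 609.3 in tumor-side and 574.4 in control-side DRGs, a log2 ratio of 0.09 that turned to -0.02 under quantile normalization and to about 0 under loess. Mmp16 had 75.7 on the tumor and 65.0 on the control side, a log2 ratio of 0.22. Mmp17, which is held in the membrane by a lipid anchor, had 157.8 on the tumor and 144.8 on the control side, a log2 ratio of 0.12. Mmp24 (MT5-MMP), which is known from neurons and cuts N-cadherin, had 242.3 in tumor-side and 223.2 in control-side DRGs, with log2 ratios of 0.12, 0.13 and -0.18 on its 3 probe sets. None of these differences stood apart from the 500 probe sets nearest in signal.
Of the MMPs not yet named, Mmp23 had 72.8 on the tumor side and 75.7 on the control side, on a probe set of the kind that can also bind related transcripts. Its other probe sets were below the rule and split. On 1 of them it had 58.3 on the tumor and 65.4 on the control side, and on the other 29.0 on the tumor and 13.9 on the control side (log2 ratio 1.06). The matrix protease Mmp19 had 12.2 on the tumor and 6.73 on the control side. Mmp28 (epilysin) had 36.8 on the tumor and 29.4 on the control side. Mmp11 (stromelysin 3) had 7.01 in tumor-side and 17.1 in control-side DRGs. These 3 were below the rule, and of them Mmp11 was the 1 past a fold of 2, lower on the tumor side with a log2 ratio of -1.28, within the central 95% of its 500 neighbours in signal (-2.56 to 2.38).

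**Figure D2:**
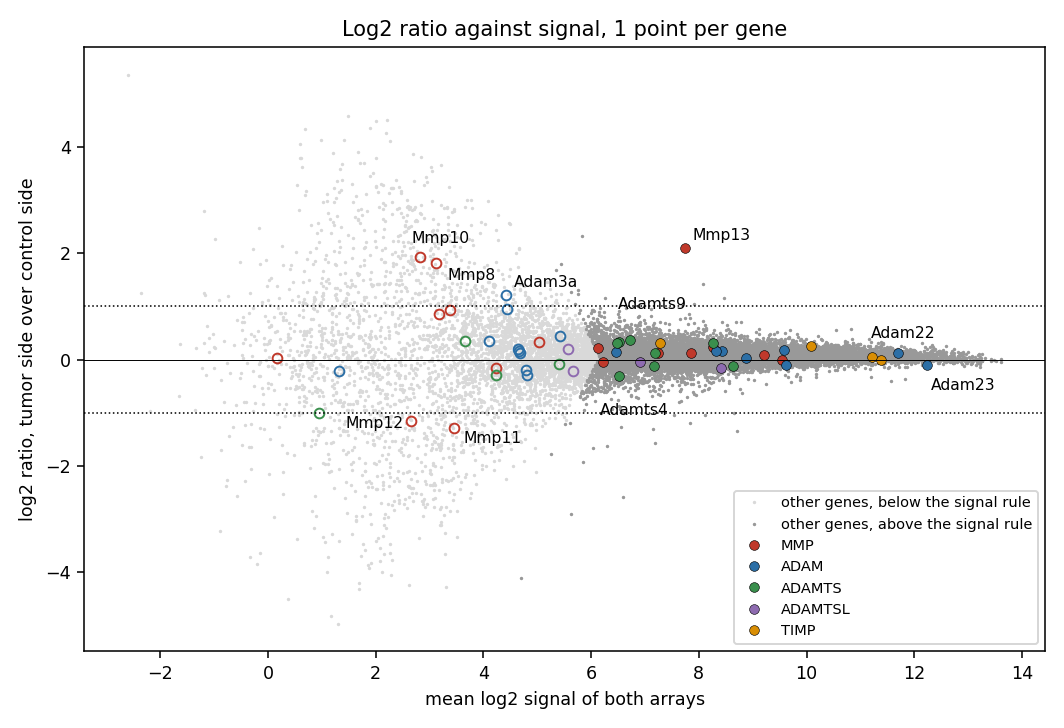
Tumor-side over control-side log2 ratio against mean log2 signal, each point a gene, with members coloured by family, filled if above the signal rule and open if below it, other genes in grey and a fold of 2 marked by dotted lines. Mmp13 (log2 ratio 2.10), which was chosen for its ratio, lies far outside the grey points of like signal. The open points of Mmp8, Mmp10, Mmp11, Mmp12 and Adam3a lie within the wide scatter at low signal.

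TIMPs bind MMPs in the active site, and all 4 were above the rule. Timp1, a secreted inhibitor that is induced in many injured tissues, had 1181 in tumor-side and 989 in control-side DRGs, a log2 ratio of 0.26. The central 95% of its neighbours in signal ended at 0.29, so this ratio lay just inside it. Timp4 had 172.6 on the tumor side and 139.5 on the control side, a log2 ratio of 0.31, at a lower signal where the central 95% reached 0.50. Timp2 had 2403 on the tumor and 2323 on the control side, a log2 ratio of 0.05, and a second probe set with 112.0 on the tumor and 143.5 on the control side went the other way (-0.36). Timp3, which is bound to the matrix and also inhibits ADAM17, had 2686.2 on the tumor side and 2686.0 on the control side. Its other probe sets had log2 ratios of 0.06, 0.28 and, on a dim one with 37.5 in tumor-side and 17.0 in control-side DRGs, 1.14. The TIMPs of this array thus did not reach a fold of 1.5 in either direction on any probe set above the rule. Relative to the median gene, 2 of the 4 were higher, Timp1 and Timp4, and 2 were lower. The signs of the small ratios of Timp2 and Timp3 turned with the scaling, to -0.04 and -0.08 under quantile normalization, -0.03 and -0.08 with median-centred ratios and -0.03 and -0.07 under loess.

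Among the ADAMs that act as sheddases, 4 of 7 were above the rule. Adam17, which releases TNF and ligands of the EGF receptor, had 821 in tumor-side and 722 in control-side DRGs, a log2 ratio of 0.19. Adam10, which cuts Notch, APP and N-cadherin, had 362 on the tumor and 326 on the control side, a log2 ratio of 0.15. A dim probe set of Adam10 had 32.7 in tumor-side and 20.4 in control-side DRGs. Adam15 had 473 in tumor-side and 463 in control-side DRGs, a log2 ratio of 0.03 that turned to between -0.06 and -0.05 under the other scalings. Adam19, a sheddase of neuregulins, had 757 on the tumor side and 816 on the control side. Its log2 ratio was -0.11, and its 3 other probe sets gave 0.06, 0.17 and -1.51, the last with 8.57 on the tumor side and 24.5 on the control side. All of these lay within a fold of 1.5 on probe sets above the rule. Below it were Adam8, a protease of leukocytes, with 19.3 on the tumor and 15.1 on the control side, Adam9 and Adam33. Adam9 had 25.2 on the tumor and 30.9 on the control side. Adam33 had 49.9 in tumor-side and 36.5 in control-side DRGs.

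The ADAMs without protease activity serve as neuronal surface receptors, and Adam22 and Adam23 bind LGI proteins at synapses and axons. Adam22 had 3458 on the tumor side and 3185 on the control side, a log2 ratio of 0.12. Its 2 other probe sets disagreed. One had 65.7 on the tumor and 73.7 on the control side, while a dim one had 27.5 in tumor-side and 7.82 in control-side DRGs. The mean log2 ratio over all 3 was 0.59, past a fold of 1.5. Adam23 had 4660 on the tumor side and 4974 on the control side, a log2 ratio of -0.09. At this high signal ratios scattered little, and Adam23 was the 1 member above the rule that lay below the central 95% of its neighbours, which began at -0.08. Such a range leaves 2.5% of probe sets below it by construction, and 1 of 30 members lay there, so nothing is read from this place. Its second probe set gave -0.08 and its dimmest, with 92.5 on the tumor side and 141.9 on the control side, -0.62, so all 3 were lower on the tumor side. This dimmest probe set was the 1 of the 41 member probe sets above the rule, apart from that of Mmp13, that reached a fold of 1.5. It too lay below the central 95% of its own neighbours in signal, which began at -0.45, while the second probe set lay within its range. Adam11, a relative that is found at axon terminals, had 335 in tumor-side and 302 in control-side DRGs, a log2 ratio of 0.15. Of the measured LGI ligands, Lgi1 had 651 on the tumor and 568 on the control side. Lgi3 had 879 on the tumor and 823 on the control side. Lgi4, a Schwann cell ligand of ADAM22, had 704 in tumor-side and 661 in control-side DRGs. The 3 log2 ratios ran from 0.09 to 0.20. The SN markers, beside which Adam23 may be set, had a median log2 ratio of -0.01 over 9 genes, and their part in its value was not tested.

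The 8 remaining ADAMs include genes known from testis and sperm of rodents, and 7 of them were below the rule. Adam1a, a sperm fertilin subunit, was above it with 93.2 in tumor-side and 84.2 in control-side DRGs. Adam3a, a sperm protein, had 32.4 on the tumor and 14.002 on the control side, a fold of 2.32. Adam2 had 30.3 on the tumor and 15.6 on the control side, short of a fold of 2. Adam4, Adam7, Adam18 and Adam32 had between 23.4 and 29.7 on either side, and Adam6 had 2.31 in tumor-side and 2.68 in control-side DRGs, no higher than the trp controls. Apart from Adam2 and Adam3a these signals differed by less than a fold of 1.5.

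Of the 12 ADAMTS genes, all 6 measured members that cut hyaluronan-binding proteoglycans such as aggrecan and versican were above the rule, and they went both ways. Adamts9 had 119.5 in tumor-side and 93.1 in control-side DRGs, and a second probe set with 38.3 on the tumor and 27.2 on the control side went the same way, with log2 ratios of 0.36 and 0.49. Adamts1 had 344 on the tumor and 278 on the control side, a log2 ratio of 0.31. Adamts8 had 99.9 in tumor-side and 80.1 in control-side DRGs, a log2 ratio of 0.32, and its chromosomal neighbour Adamts15 had 151.6 on the tumor and 139.6 on the control side, a log2 ratio of 0.12. These 4 were higher on the tumor side. The aggrecanases of arthritic cartilage are Adamts4 and Adamts5. Adamts4 had 82.2 on the tumor side and 102.3 on the control side (log2 ratio -0.32). Adamts5 had 380 on the tumor and 415 on the control side (-0.13), with 397 in tumor-side and 394 in control-side DRGs on its second probe set. Adamts1 and Adamts5 lie next to each other on chromosome 11, and the sign of Adamts5 differed between its probe sets. Members known to cut the cartilage protein COMP also differed in sign. Adamts7 had 102.5 on the tumor and 81.5 on the control side (0.33), and Adamts12 had 138.4 on the tumor and 150.2 on the control side (-0.12). Each of these values lay within the central 95% of its neighbours in signal. Adamts10, Adamts16 and Adamts19, below the rule, had between 11.2 and 43.5 on either side, and Adamts6 had 1.35 in tumor-side and 2.73 in control-side DRGs, no higher than the trp controls. Of the ADAMTSL genes, which bind fibrillin and other matrix proteins, Adamtsl4 had 320 on the tumor side and 359 on the control side and Adamtsl1 had 118.5 on the tumor and 122.2 on the control side. The 2 others were dim, Adamtsl2 with 50.6 on the tumor and 44.3 on the control side and Adamtsl5 with 47.3 in tumor-side and 54.7 in control-side DRGs.

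Below the signal rule were 25 members, with signals between 1.11 and 54.7. At a fold of 2, 3 of them were higher on the tumor side and 3 were lower, against a background of 13.3% and 11.2% of the 4526 genes below the rule. Of these 6, Mmp8, Mmp10, Mmp12 and Adamts6 had at least 1 signal no higher than the trp controls, which left Adam3a as higher and Mmp11 as lower. Over all 55 members at any signal, 4 were higher and 3 lower, against 4.31% and 3.71% of all genes. The 25 dim members all lay within the central 95% of the 500 probe sets nearest in signal.

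**Figure D3:**
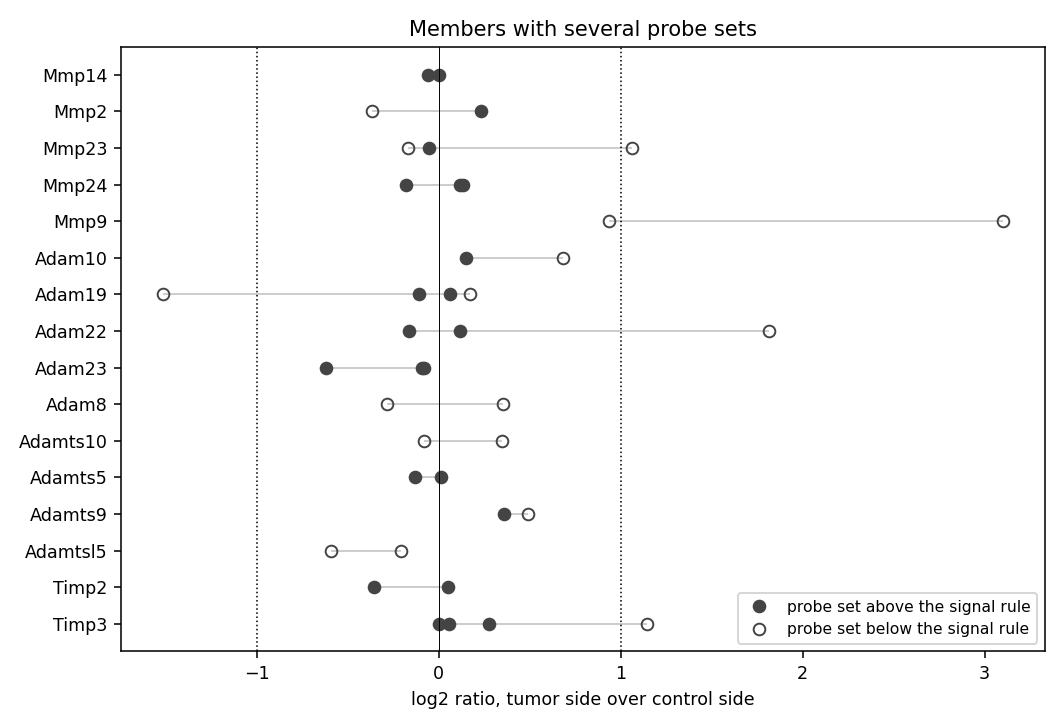
Tumor-side over control-side log2 ratios of the 16 members with several probe sets, 1 point per probe set, filled above and open below the signal rule, with a fold of 2 marked by dotted lines. All filled points lie within a fold of 2, and the open points beyond it, such as those of Mmp9, Adam22 and Timp3, are dim.

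Repeat measurements within an array came from the 16 members with several probe sets. In 9 of these the probe sets went opposite ways. Of the 8 with at least 2 probe sets above the rule, Adam23 was lower on the tumor side on all of those, and Adam19, Adam22, Adamts5, Mmp24 and Timp2 split. Mmp14 and Timp3 did not change sign, but their brightest probe sets had log2 ratios of -0.0001 and 0.0001, so no direction is read from them. Mmp13 has 1 probe set, so its ratio has no such second reading here.

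Some markers of bone cells were higher on the tumor side together with Mmp13. Among markers of osteoblasts and osteocytes 5 were above the rule, of which 1 passed a fold of 2 upwards, with a median log2 ratio of 0.39 and a range from 0.01 to 1.43. Bglap (osteocalcin) had 446 on the tumor side and 165.7 on the control side. Ibsp (bone sialoprotein) had 193.1 on the tumor and 100.2 on the control side. Spp1, which DRGs express themselves, had 7675 on the tumor and 7642 on the control side. Over all 10 measured of 14 listed markers the signals summed to 10688 in tumor-side and 9780 in control-side DRGs. Most of both sums came from Spp1 and from Col1a1, which had 2113 on the tumor and 1618 on the control side. The median of 0.39 was the log2 ratio of Col1a1, which is also on the list of matrix proteins cut by members. The transcription factor genes of osteoblasts, Runx2 and Sp7, were not analysed here. The osteocyte markers were dim and went both ways. Dmp1 had 37.6 on the tumor and 52.3 on the control side, and Phex had 33.1 in tumor-side and 36.1 in control-side DRGs. Mepe had 39.0 on the tumor and 29.2 on the control side, and Sost had 15.8 in tumor-side and 8.31 in control-side DRGs. Of 4 osteoclast markers above the rule, all had a log2 ratio above that of the median gene. Acp5 (TRAP) had 165.7 in tumor-side and 82.3 in control-side DRGs. Ctsk (cathepsin K) had 564 on the tumor and 346 on the control side. The 2 dim ones went opposite ways. Calcr had 12.4 on the tumor and 5.59 on the control side, and Tnfrsf11a (RANK) had 11.7 on the tumor and 23.2 on the control side. The 6 measured markers summed to 1146 on the tumor and 770 on the control side. Markers of cartilage above the rule moved less. The 6 above the rule had a median log2 ratio of 0.21 and reached at most 0.39, and Col10a1, the collagen of hypertrophic cartilage, had 91.7 on the tumor side and 87.7 on the control side. The 5 dim ones went both ways. Acan had 11.8 on the tumor and 23.8 on the control side, and Matn1 had 29.0 in tumor-side and 19.2 in control-side DRGs. The 11 measured summed to 2750 in tumor-side and 2385 in control-side DRGs. No marker of these 3 lists was at 0. The sides also differed in skeletal muscle markers, of which 9 of 11 above the rule were lower on the tumor side by a fold of 2 or more. The ratio of Mmp13, 2.10, exceeded that of each of these markers above the rule. Mmp13 was chosen for its large ratio, so nothing is read from this order. The part of bone tissue in the ratio of Mmp13 was not tested. Beside Mmp13, the collagenase and gelatinase genes Mmp2, Mmp9 and Mmp14 are also made by cells of bone, and their values are given above.

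**Figure D4:**
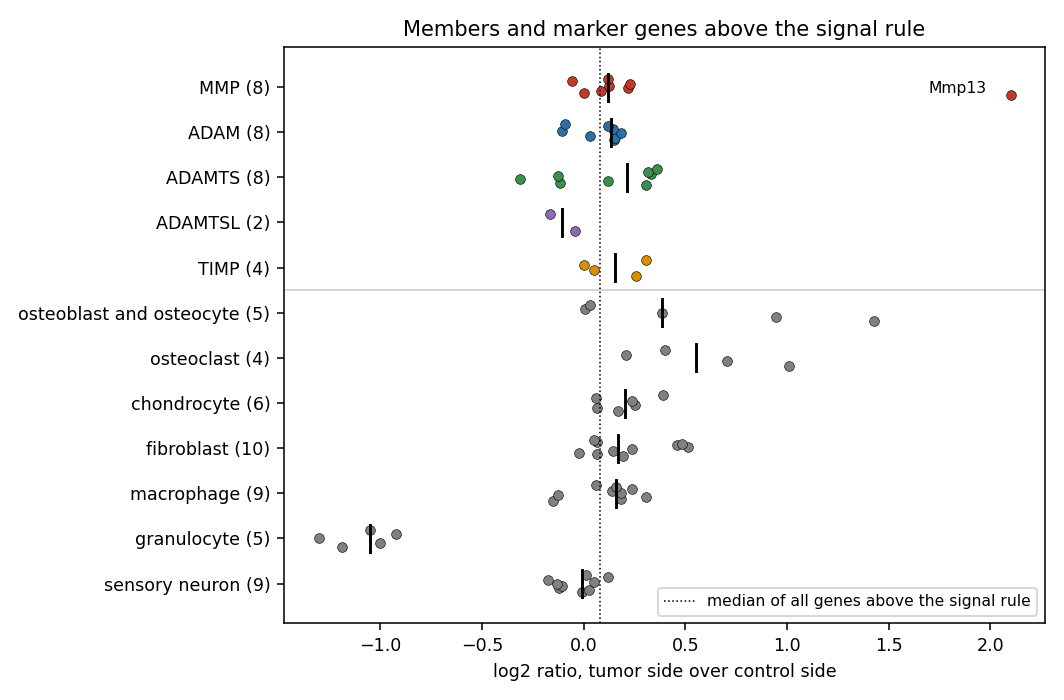
Tumor-side over control-side log2 ratios of members, by family, and of the genes of some marker lists, all above the signal rule. Other lists are not shown, among them skeletal muscle, whose log2 ratios above the rule ran from -4.11 to 0.17. Each point is a gene, and brackets give how many there are. Black bars are medians and the dotted line marks the all-gene median (0.08). Mmp13 (2.10), which was chosen for its ratio, lies beyond all bone markers, of which Bglap had 1.43 and Acp5 1.01. The other members stay between -0.32 and 0.36.

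Genes that act together with the members stayed within a fold of 1.5 above the rule, as did most genes. Of all 9691 genes above the rule, 1.19% were higher and 0.743% lower by that fold. Nothing is therefore read from the counts of 0 that follow. Of 7 activators of MMPs and ADAMs above it, 0 passed that fold in either direction. Furin, which removes the propeptides of membrane-type MMPs and ADAMs, had 120.4 on the tumor side and 145.4 on the control side. Of the plasminogen activators, Plau had 152.1 on the tumor and 138.9 on the control side, and Plat had 1577 in tumor-side and 1443 in control-side DRGs. Bsg, an inducer of MMPs, had 3039 in tumor-side and 2777 in control-side DRGs. Of 4 inhibitors other than TIMPs above the rule, 0 passed, with Reck, a membrane inhibitor of MMPs, at 1148 on the tumor and 1039 on the control side. Of 10 partners of ADAMs above the rule, 0 passed, with the iRhom gene Rhbdf1, needed for transport of ADAM17, at 186.7 on the tumor and 178.3 on the control side. Matrix proteins that are cut by members had a median log2 ratio of 0.14 over 20 genes above the rule, 15 of which were above the median gene. Col4a2 had 143.2 in tumor-side and 104.4 in control-side DRGs. Col1a1 had 2113 on the tumor and 1618 on the control side. Vcan (versican) had 77.4 on the tumor and 60.7 on the control side, and none of the 20 passed a fold of 1.5. Surface proteins shed by ADAMs had a median of 0.03 over 25 genes, none past a fold of 1.5. The receptor Epha4 had 102.2 in tumor-side and 81.1 in control-side DRGs. The Notch ligand Jag1 had 544 on the tumor and 434 on the control side, and Notch3 had 153.9 on the tumor and 127.5 on the control side. Of 10 listed transcription factors of Mmp13 above the rule, 0 passed a fold of 1.5. Runx2, also on this list, was not analysed here. Jun had 931 on the tumor side and 823 on the control side. Fos had 130.0 in tumor-side and 135.2 in control-side DRGs. Lef1, with the widest gap of the 10, had 69.9 on the tumor and 90.8 on the control side. Another 4 were dim. Fosl2 had 13.5 on the tumor and 4.02 on the control side, and Fosb had 4.07 on the tumor and 1.83 on the control side. Fosl1 had 24.7 on the tumor and 18.1 on the control side, and Junb had 39.5 on the tumor and 40.0 on the control side. Both signals of Fosb and the control-side signal of Fosl2 were no higher than the trp controls.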

How the data were processed

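Total RNA of DRGs (100 ng per array) was labelled with biotin and hybridized to 1 GeneChip array per side. Signal intensity was computed by the authors with MAS 5.0 (MAS5 in the processing notes) and deposited without a log, for 31099 probe sets of which 57 were controls. These values include that program's correction for background and its summary over probes. The program's default settings were used per the study's methods, which name no scaling target, and no detection calls were used here. The mean signal after trimming 2% at each end was 287 on the tumor-side and 271 on the control-side array, 5.98% apart. No genome build is named for the arrays, and coordinates are those of RefSeq (GRCr8). Symbols came from the probe-to-gene table, and all members' symbols were also in RefSeq.

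Log2 ratios of tumor side over control side were computed without a pseudocount. No test was made between single arrays, and this number of arrays limits the precision. Members, lists and the naming rule were chosen with earlier results of these data known. All MMP and TIMP members were named. Of the ADAM, ADAMTS and ADAMTSL members above the signal rule, those at a fold of 1.5 were named. So were those among the 3 highest or 3 lowest ratios of a family or on a fixed list of well-known family members. Other members, genes next to Mmp13, LGI ligands and some markers were chosen after their values were seen. The procedure was tested on simulated data. Other settings tried were loess (span 0.3), centring log2 ratios on their median, quantile normalization, a pseudocount of 11.1 (percentile 20 of all signals), other signal filters, folds of 1.5 and 3, averaging a gene's probe sets, and leaving out probe sets open to cross-hybridisation. Python 3.11.15, numpy 2.4.6, pandas 2.3.3, scipy 1.17.1, statsmodels 0.14.6 and matplotlib 3.10.9 were used.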

Additional observations from a re-analysis of the deposited data

How the results depend on the processing

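At the fold tested, Mmp13 was the 1 member higher in tumor-side DRGs and 0 were lower under all alternatives but 1. Without a signal filter, 4 members were higher and 3 were lower, since dim members then enter the count by construction. The log2 ratio of Mmp13 was between 1.99 (pseudocount) and 2.10. The median log2 ratio of the members was between 0.04 and 0.14, and it was lower under the settings that bring the median gene to about 0. Of 323 values of the other members under other settings, 303 stayed within the SD among same-gene probe sets and 20 did not. Many of the 303 could not have moved. Averaging cannot change a member with a single probe set. Leaving out probe sets open to cross-hybridisation changed only Mmp14 and Mmp23 and left Adam33 without a value. For dim members the SD was far wider than the shift from rescaling. The 303 are therefore not read as a measure of robustness. Among the 29 other members above the rule, the 1 value at a fold of 1.5 under any setting was that of Adam22 as the mean over its probe sets (0.59). No paired analysis was possible because there is only 1 array a side. Ratios scatter widely at low signal, so differences of the 25 dim members cannot be read as changes here.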
